A study of Mus musculus with 4 samples.

Results

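The genes described here are 35 imprinted mouse genes, grouped by imprinted cluster and by the parental allele they are known to be expressed from. They were taken from a fixed list by gene symbol, and all 35 were found among the 46406 rows of the table. Of these, 21 are known as paternally expressed and 13 as maternally expressed. The remaining gene, Gnas, differs in parental origin between its transcripts. The list covers 8 named clusters and 8 genes outside them. It spreads over 8 chromosomes, with 17 genes on chromosome 7. The values come from ATAC-seq, in which the Tn5 transposase cuts and tags open DNA, in J1 mouse embryonic stem cells grown without feeder cells. There were 2 control libraries, labelled wild type, and 2 libraries labelled Zscan4 OE, for overexpression of Zscan4. All 4 libraries carry the same passage label, PN+8. The labels give no vector, promoter or clone for the overexpression, and do not say whether replicates were separate cultures. The spread behind every p-value is therefore that between libraries alone, and it may be technical.

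Imprinted genes are transcribed mainly from the allele of either the mother or the father. The choice is set by DNA methylation laid down in the germ line at imprinting control regions, and it is kept through early development by the zinc finger protein ZFP57 and its co-repressor TRIM28. Many such genes sit in clusters in which a long non-coding RNA from one parental chromosome goes with silence of its neighbours on that chromosome. Embryonic stem cells keep most germ-line imprints, but can lose them in culture. Zscan4 is a zinc finger protein of the 2-cell embryo, and the series title links it to degradation of a co-repressor complex and to accessible chromatin. The values below are not split by allele, so they say nothing of which parental copy was open. In a bulk library, fewer cells with an open gene and a less open gene in each cell cannot be told apart.

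To show the kind of DNA at the starts of these genes, 8 stretches of 250 bases upstream of an annotated start are printed, 5′ to 3′ on the gene's own strand, from RefSeq (GRCm38.p6). RefSeq start windows were matched for 28 of the 35 genes. Cdkn1c, H19, Impact, Kcnq1, Peg10, Rtl1 and Sgce were not matched. Capitals mark the hexamer TGCCGC or its reverse complement GCGGCA, the sequence that ZFP57 binds when it is methylated. Both strands were searched. The first 5 stretches hold the hexamer, in Mest (chr6:30737800-30738049, plus strand), Meg3 (chr12:109540746-109540995, plus strand), Zim1 (chr7:6696433-6696682, minus strand), Nap1l5 (chr6:58907127-58907376, minus strand) and Plagl1 (chr10:13090582-13090831, plus strand). The other 3, of Mkrn3 (chr7:62420154-62420403, minus strand), Kcnq1ot1 (chr7:143296548-143296797, minus strand) and Peg3 (chr7:6730420-6730669, minus strand), belong to genes whose libraries did not overlap between groups, and hold no copy.
Mest: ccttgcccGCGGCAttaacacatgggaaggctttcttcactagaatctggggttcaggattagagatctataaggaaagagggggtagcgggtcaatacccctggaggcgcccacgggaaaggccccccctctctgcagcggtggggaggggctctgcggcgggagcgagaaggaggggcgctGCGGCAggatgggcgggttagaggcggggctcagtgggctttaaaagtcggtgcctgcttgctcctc
Meg3: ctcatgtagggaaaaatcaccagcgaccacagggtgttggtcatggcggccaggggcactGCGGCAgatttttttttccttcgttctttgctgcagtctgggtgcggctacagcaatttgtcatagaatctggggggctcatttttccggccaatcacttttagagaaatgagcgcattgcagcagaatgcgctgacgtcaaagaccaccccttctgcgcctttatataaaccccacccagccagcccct
Zim1: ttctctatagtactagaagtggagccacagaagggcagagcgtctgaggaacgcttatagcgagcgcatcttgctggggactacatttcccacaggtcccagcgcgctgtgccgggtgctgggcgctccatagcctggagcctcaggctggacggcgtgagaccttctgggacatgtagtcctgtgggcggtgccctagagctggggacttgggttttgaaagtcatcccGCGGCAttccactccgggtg
Nap1l5: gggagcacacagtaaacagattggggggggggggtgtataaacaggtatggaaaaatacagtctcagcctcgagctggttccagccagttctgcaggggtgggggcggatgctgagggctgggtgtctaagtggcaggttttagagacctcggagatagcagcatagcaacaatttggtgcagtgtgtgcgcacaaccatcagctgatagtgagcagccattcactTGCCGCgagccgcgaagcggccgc
Plagl1: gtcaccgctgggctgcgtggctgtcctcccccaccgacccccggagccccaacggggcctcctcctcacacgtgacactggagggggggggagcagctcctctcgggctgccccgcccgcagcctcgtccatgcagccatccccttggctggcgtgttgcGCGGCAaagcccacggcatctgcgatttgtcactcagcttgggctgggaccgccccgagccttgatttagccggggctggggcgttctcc
Mkrn3: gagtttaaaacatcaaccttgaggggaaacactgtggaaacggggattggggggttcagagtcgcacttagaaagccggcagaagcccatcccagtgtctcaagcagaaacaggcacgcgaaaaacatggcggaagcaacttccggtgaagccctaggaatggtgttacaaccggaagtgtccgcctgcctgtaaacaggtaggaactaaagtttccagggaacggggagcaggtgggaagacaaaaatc
Kcnq1ot1: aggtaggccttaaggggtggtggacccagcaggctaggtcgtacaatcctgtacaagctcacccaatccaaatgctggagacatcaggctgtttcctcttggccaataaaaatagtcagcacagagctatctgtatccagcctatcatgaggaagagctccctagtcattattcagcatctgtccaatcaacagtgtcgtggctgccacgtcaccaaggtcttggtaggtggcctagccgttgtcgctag
Peg3: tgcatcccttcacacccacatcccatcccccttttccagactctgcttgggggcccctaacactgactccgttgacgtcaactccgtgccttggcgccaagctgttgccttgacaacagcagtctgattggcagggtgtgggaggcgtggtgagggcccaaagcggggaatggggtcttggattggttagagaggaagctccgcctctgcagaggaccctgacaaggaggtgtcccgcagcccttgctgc

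The hexamer stood in an upstream stretch of 5 of the 28 matched genes (17.9%), against 9.84% of all 27025 genes with such a window. Imprinted genes also had more CpG dinucleotides there, with a median of 10 in the richest window of a gene against 6 over all genes. Among genes with 10 to 19 CpG dinucleotides the hexamer was present in 5 of 10 imprinted genes and in 13.6% of 5554 genes of all kinds. It was present in 0 of 12 imprinted genes with fewer (3.03% of all 16154) and in 0 of 6 with 20 or more (26.6% of all 5317). A match is a description of the letters and not a bound site. The 5 genes with the hexamer had log2 differences from −0.27 to 0.99 between the groups, within the range of −0.83 to 1.04 of the 23 without it. Peg3 and Usp29 lie 96 bases apart in the annotation, on opposite strands, so their upstream stretches overlap, and that of Usp29 holds no copy either. Peg10 and Sgce lie 101 bases apart.

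The deposited value of a gene is a number of reads over its exons, divided by their length and by a total of reads (RPKM). The totals behind the values changed from row to row, so whole reads were recovered and each value was put on its own library's total. RPKM below means this rescaled value. Library totals ran from 1061428 reads in control 1 to 4899494 in Zscan4 OE 2, with 2903602 in control 2 and 3605774 in Zscan4 OE 1. The 35 genes together held 265, 567, 990 and 1133 reads in control 1, control 2, Zscan4 OE 1 and Zscan4 OE 2, and the median gene had 67 reads over the 4 libraries. Replicates varied beyond counting error, as the chi-square per degree of freedom was 2.33 for the control pair and 1.91 for the Zscan4 OE pair. Overexpression could not be checked, since 6 of the 8 Zscan4 rows had no read and none had more than 1 in a library. All 6 stem cell marker genes (Pou5f1, Nanog, Sox2, Zfp42, Esrrb and Tdgf1) had reads in every library, and so did 5 of 6 fibroblast markers (not S100a4). The stem cell markers summed to 33.0, 19.6, 47.7 and 28.2 reads per 1000000 library reads (RPM) in the order above, and the fibroblast markers to 33.9, 27.9, 31.9 and 24.9 RPM.

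Exon accessibility of imprinted genes lay within the range of other genes. Their mean RPKM over the 4 libraries had a median of 0.860 and quartiles of 0.747 and 1.17. Over the 19012 rows with 20 reads or more the median was 1.04, with quartiles of 0.737 and 1.53. Of the 35 genes, 24 lay below the median of those rows. Over all 42989 tested rows the median was 0.802, below that of the list, so the side depended on the rows compared. Slc22a18 stood highest, at 2.42 ± 1.01 RPKM (SD, n = 4), followed by Peg12 at 2.19 ± 0.473 and Zrsr1 at 1.72 ± 0.124, and these neighbours did not differ beyond their spread. H19 stood lowest at 0.251 ± 0.218 RPKM, followed by Kcnq1ot1 at 0.406 ± 0.0537, Ube3a at 0.430 ± 0.208 and Igf2 at 0.535 ± 0.213 (SD, n = 4), and again neighbours did not differ beyond their spread. The 6 long non-coding genes had a median of 0.766 RPKM and the 29 protein-coding genes 0.860. In 8 genes the recovered length was at least 90% of the annotated span, so that nearly the whole gene was measured, and their median of 0.899 RPKM lay near the 0.852 of the other 27.

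**Figure D1:**
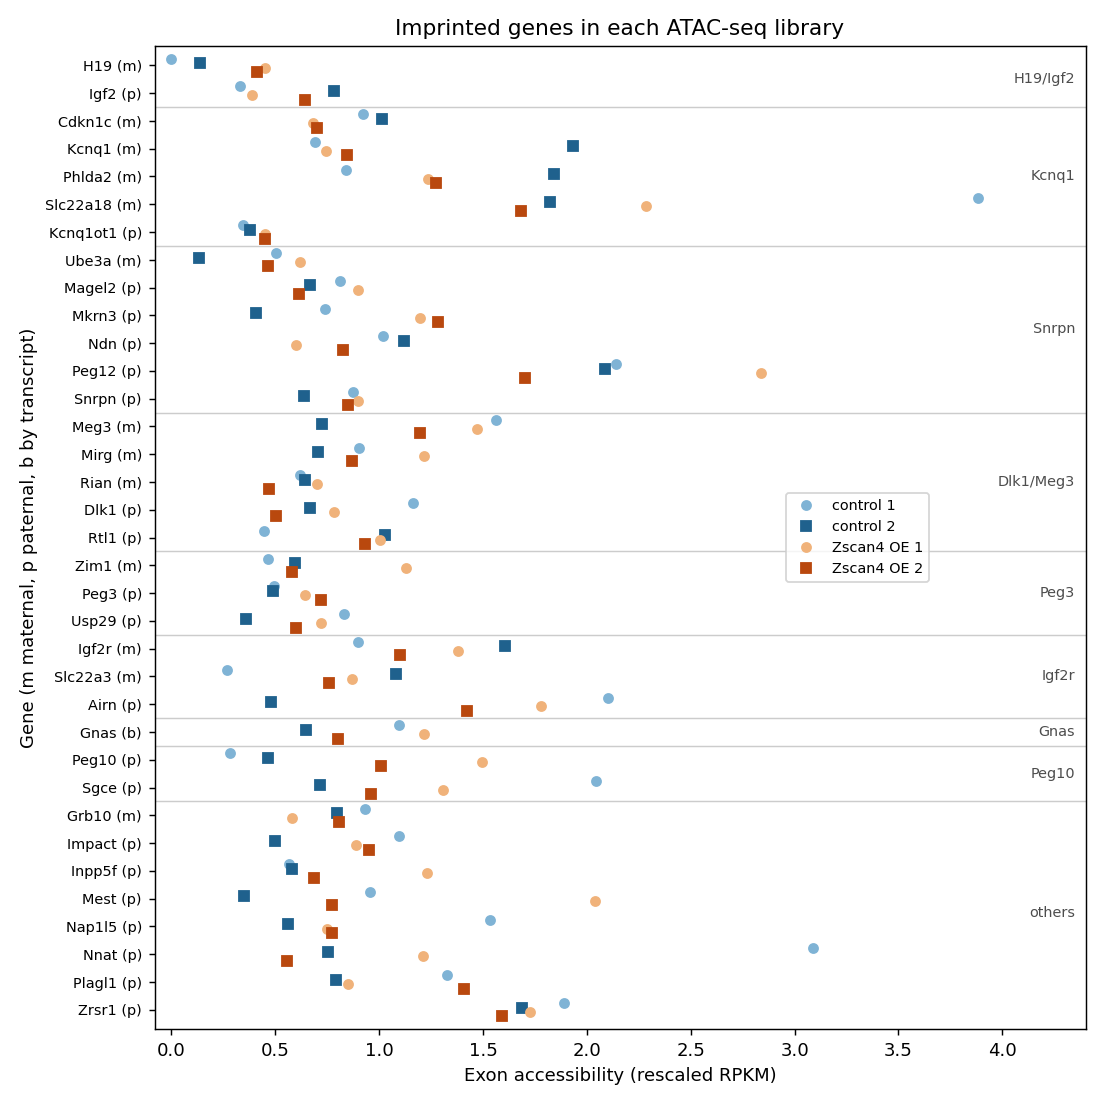
Exon accessibility (rescaled RPKM, horizontal axis) of each imprinted gene in the 4 libraries, sorted by cluster, with m, p and b for maternal, paternal and by transcript. Light and dark blue points are controls 1 and 2, light and dark orange points Zscan4 OE 1 and 2. Peg10, Mkrn3 and H19 have both orange points to the right of both blue points, and Cdkn1c and Ndn have both to the left.

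No imprinted gene passed the test between Zscan4 OE and control. All 35 were tested with limma on log2(RPKM + 0.1), with Benjamini-Hochberg adjustment over 42989 rows and a threshold of 0.05, and 0 were higher and 0 lower. Over all tested rows the share called was 0% in each direction. At an unadjusted p under 0.05 there were 0 imprinted genes in either direction, against 5.09% of all rows higher and 1.33% lower. With limma voom on the recovered reads, 3 imprinted genes of 32 tested were higher at an unadjusted p under 0.05 (Ube3a, Peg10 and Mest) and 0 lower, against 3.35% and 1.78% of all 19012 rows, with an adjusted p of 0.949 for each. When Zscan4 OE 1 was left out, 4530 rows of the table passed as higher and 6 as lower, and leaving out Zscan4 OE 2 gave 3889 and 2, with 0 imprinted genes in either fit. In both fits the lone Zscan4 OE library is assumed to vary like the control pair, from which alone the spread is taken, so they say nothing of how stable the result is. The smallest adjusted p of an imprinted gene was 0.795 (limma), that of Peg10.

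Both libraries of a group stood apart from both of the other in 8 of the 35 genes. H19, Peg10, Peg3, Mkrn3, Kcnq1ot1 and Inpp5f were higher in both Zscan4 OE libraries, which is 17.1% of the list against 19.6% of all tested rows. Ndn and Cdkn1c were lower in both, 5.71% against 10.1%. These shares lay near the background and are not a result about imprinted genes. With reads divided by the exon reads of a library in place of its total, 7 genes were higher and 3 lower, against 19.2% and 12.6% of all rows. Only H19, Peg10, Mkrn3 and Inpp5f were higher, and Cdkn1c lower, under both scalings. Mirg, Ube3a and Mest were higher, and Dlk1 and Slc22a18 lower, per exon read alone. Peg3 and Kcnq1ot1 were higher, and Ndn lower, by library totals alone. The log2 difference was positive in 23 genes and negative in 12, with a median of 0.20, against 0.28 over all tested rows. That overall shift was 0.66 in rows with under 20 reads and 0.11 in rows with 100 or more. Relative to all rows the median of the list was −0.08, and it was 0.06 when only rows with 20 reads or more were tested. Over the 14 alternative settings 9 genes stayed positive wherever they were tested (H19, Peg10, Peg3, Zim1, Mirg, Mkrn3, Ube3a, Mest and Inpp5f). Cdkn1c stayed negative, and the other 25 changed sign at least once. Of these, Dlk1, Ndn, Grb10 and Zrsr1 were positive only in the values as deposited, where the median of all rows was 1.40.

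**Figure D2:**
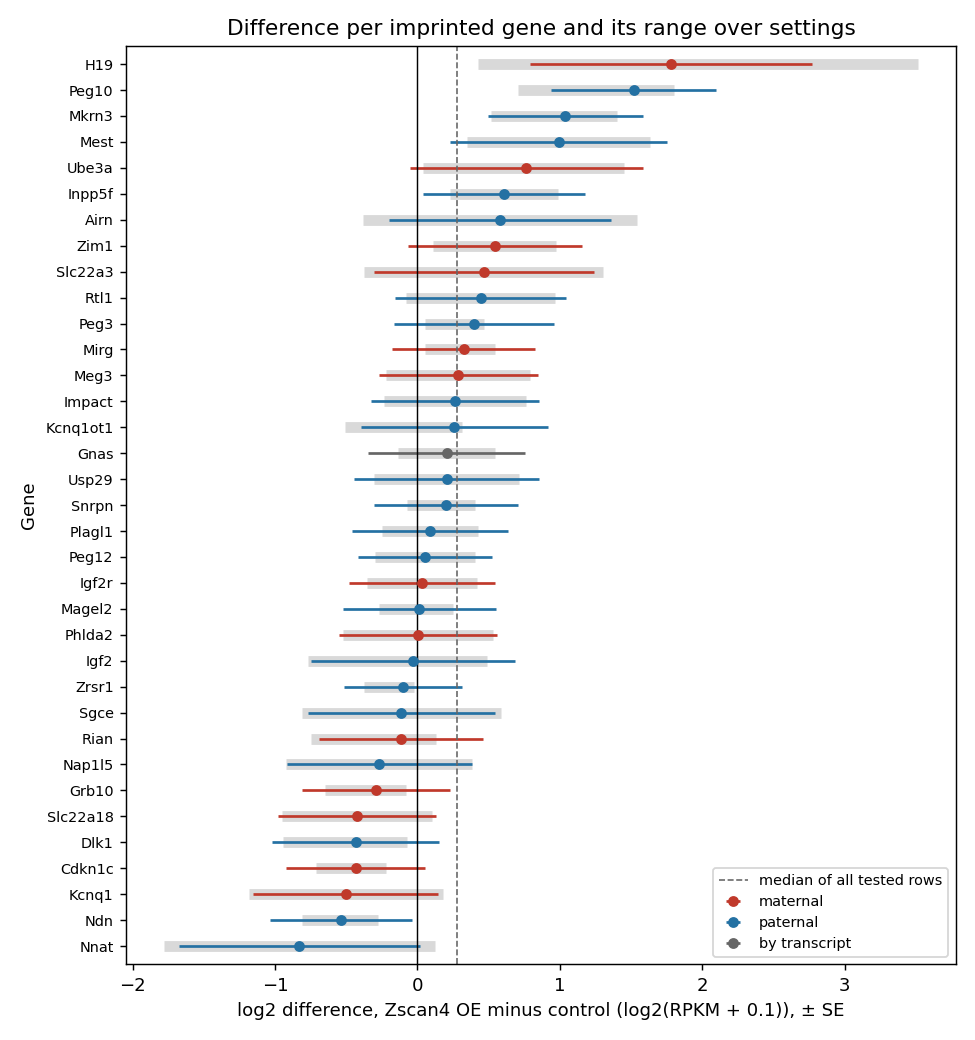
Difference between Zscan4 OE and control for each imprinted gene on the log2(RPKM + 0.1) scale (horizontal axis), with the standard error of the limma fit, coloured by expressed allele. Grey bars span the same gene's difference over the settings tried, leaving out the values as deposited, and the dashed line is the median of all tested rows, 0.28. The standard errors of neighbouring genes overlap along the whole list, from H19 at 1.78 to Nnat at −0.83.

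H19 and Igf2, on distal chromosome 7, are the classic pair in which the maternal chromosome makes a non-coding RNA and the paternal chromosome a fetal growth factor from shared enhancers. H19 (142575530 to 142578146, GRCm38) was among the most thinly covered genes, with 0, 1, 4 and 5 reads in control 1, control 2, Zscan4 OE 1 and Zscan4 OE 2. Its RPKM was 0, 0.140, 0.451 and 0.415, higher in both Zscan4 OE libraries. The count of 0 in control 1 has a Poisson 95% upper bound of 3.475 RPM, above the 1.11 and 1.0 RPM of the Zscan4 OE libraries, so the difference was not detectable at this depth (log2 difference 1.78, SE 0.988, limma adjusted p = 0.869). Its size hung on the pseudocount, with 0.42 at a pseudocount of 1 and 3.51 at 0.01, and it was 0.57 with quantile normalization and 1.15 without control 1. Igf2 was at 0.329, 0.782, 0.388 and 0.642 RPKM, and the groups overlapped. The pair summed to 1.88 and 4.82 RPM in the controls, against 3.33 and 4.69 RPM in Zscan4 OE.

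The Kcnq1 cluster lies beside it on chromosome 7, and there the paternal antisense RNA Kcnq1ot1 keeps the maternally expressed neighbours silent in cis. Kcnq1ot1 (143213111 to 143296547, GRCm38) had the most reads of all 35 genes, 34, 102, 151 and 206, over a recovered length of 93092 bases. It was at 0.344, 0.377, 0.450 and 0.452 RPKM, with both Zscan4 OE libraries above both controls. The group means of 0.361 ± 0.0235 and 0.451 ± 0.00128 RPKM (SD, n = 2) differed by more than the spread between replicates. The counting intervals did not separate the groups, at 22.2 to 44.8 and 28.6 to 42.6 RPM in the controls and 35.5 to 49.1 and 36.5 to 48.2 RPM in Zscan4 OE (Poisson, 95%). Per exon read the groups overlapped, and the log2 difference of 0.26 (SE 0.657) turned to −0.02 with each library centred on its median and to −0.51 with quantile normalization. Cdkn1c (143458339 to 143461059), an inhibitor of the cell cycle, was at 0.924 and 1.01 RPKM in the controls, against 0.680 and 0.701 in Zscan4 OE, lower in both libraries. It rested on 2, 6, 5 and 7 reads (log2 difference −0.43, SE 0.488, limma adjusted p = 0.869). The other maternally expressed genes overlapped between groups by library totals. Kcnq1, a potassium channel gene, was at 0.691, 1.94, 0.745 and 0.848 RPKM, with control 2 apart from the rest. Slc22a18, a transporter gene, was at 3.88, 1.82, 2.29 and 1.68 RPKM, with control 1 apart, and was lower in both Zscan4 OE libraries per exon read. Phlda2, a brake on placental growth, had 1, 6, 5 and 7 reads. The annotated span of Kcnq1ot1 lies within that of Kcnq1 over 83437 bases, and ATAC-seq reads have no strand, though the value of Kcnq1 covers 1.28% of its span.

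In the Snrpn cluster of central chromosome 7, the region of Prader-Willi and Angelman syndromes in humans, 5 of the 6 listed genes are paternally expressed. Mkrn3 (62417593 to 62420153, GRCm38), a ring finger gene linked in humans to the timing of puberty, was at 0.740 and 0.406 RPKM in the controls, against 1.20 and 1.28 in Zscan4 OE, from 2, 3, 11 and 16 reads. The groups did not overlap. Its means of 0.573 ± 0.236 and 1.24 ± 0.0597 RPKM (SD, n = 2) gave a log2 difference of 1.04 (SE 0.543, limma adjusted p = 0.869), which was 0.67 without control 2 and 0.52 with a pseudocount of 1. Ndn (62348277 to 62349928), a MAGE-family gene, was at 1.0, 1.12, 0.601 and 0.829 RPKM. Both Zscan4 OE libraries were below both controls (log2 difference −0.53, SE 0.497, limma adjusted p = 0.869), though not per exon read, and the difference was −0.33 without Zscan4 OE 1. Its recovered length of 3694 bases was 224% of the annotated gene, so the authors' gene model reached further. Its MAGE-family neighbour Magel2 was at 0.814, 0.669, 0.898 and 0.617 RPKM and overlapped. Peg12, a Frat-family gene, was the most accessible paternally expressed gene, at 2.14, 2.09, 2.84 and 1.70 RPKM, and the controls lay between the Zscan4 OE libraries. Snrpn, which encodes a spliceosomal protein and whose start region holds the control region, was at 0.873, 0.638, 0.899 and 0.851 RPKM from 2, 4, 7 and 9 reads. Ube3a, a ubiquitin ligase gene imprinted in neurons, was at 0.502, 0.134, 0.619 and 0.465 RPKM. Control 2 stood alone at the low end. The log2 difference of Ube3a was 0.76, and it was 0.08 without control 2 and 1.45 without control 1. Its groups overlapped by library totals, and per exon read it was higher in both Zscan4 OE libraries.

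The Dlk1/Meg3 cluster on chromosome 12 pairs maternal non-coding RNAs with paternal protein-coding genes, and silence of its maternal RNAs is known to mark stem cell lines of reduced developmental potential. Meg3, the first of these RNAs, was well covered, at 1.56, 0.724, 1.47 and 1.20 RPKM from 30, 38, 96 and 106 reads. Control 1 was its highest library and control 2 its lowest, so the groups overlapped. Rian, which hosts small nucleolar RNAs, was at 0.620, 0.642, 0.7 and 0.470 RPKM. Mirg, which hosts microRNAs, was at 0.904, 0.708, 1.22 and 0.868 RPKM. Both overlapped between groups by library totals, while per exon read Mirg was higher in both Zscan4 OE libraries. Of the paternal genes, Dlk1, a Notch-family membrane protein gene, was at 1.17, 0.670, 0.784 and 0.505 RPKM. Its groups overlapped by library totals, and per exon read it was lower in both Zscan4 OE libraries. Rtl1, a retrotransposon-derived gene of the placenta, was at 0.445, 1.03, 1.0 and 0.931 RPKM, with control 1 apart on 3 reads. Rtl1 overlaps the annotated spans of Meg3 by 6830 bases and of Rian by 474 bases. Between the ends of Dlk1 and Mirg (109452485 to 109749458) the table holds 67 further rows, 65 of them small RNA genes, with 10, 33, 60 and 38 reads in all.

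The Peg3 cluster on proximal chromosome 7 holds zinc finger genes. Peg3 (6703892 to 6730462, GRCm38), a paternally expressed zinc finger gene that acts in maternal behaviour and growth, was at 0.495 and 0.491 RPKM in the controls, against 0.645 and 0.720 in Zscan4 OE. Its group means of 0.493 ± 0.00272 and 0.683 ± 0.0528 RPKM (SD, n = 2) differed by more than the spread between replicates. The values rested on 7, 19, 31 and 47 reads, so so small a control SD is no measure of precision. The counting intervals overlapped, at 2.65 to 13.6 and 3.94 to 10.2 RPM in the controls and 5.84 to 12.2 and 7.05 to 12.8 RPM in Zscan4 OE (Poisson, 95%). Per exon read the groups overlapped too (log2 difference 0.40, SE 0.561, limma adjusted p = 0.899). Usp29, the protease gene that starts beside Peg3 on the other strand, was at 0.834, 0.362, 0.721 and 0.598 RPKM and did not show the same split. The maternally expressed zinc finger gene Zim1 was at 0.466, 0.596, 1.13 and 0.581 RPKM, high in Zscan4 OE 1 alone.

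In the Igf2r cluster on chromosome 17 the paternal antisense RNA Airn silences the paternal copies of its neighbours. Airn was at 2.10, 0.481, 1.78 and 1.42 RPKM from 8, 5, 23 and 25 reads, and the controls lay on either side of Zscan4 OE. Igf2r, whose product clears the growth factor IGF2, was at 0.898, 1.61, 1.38 and 1.10 RPKM, again with the controls outermost. Slc22a3, a cation transporter gene imprinted in the placenta, was at 0.269, 1.08, 0.871 and 0.758 RPKM. Airn and Igf2r overlap over 28396 annotated bases on opposite strands. Gnas, on chromosome 2, which encodes a stimulatory G protein subunit and makes maternal, paternal and biallelic transcripts, was at 1.09, 0.647, 1.22 and 0.803 RPKM and overlapped between groups.

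Peg10 had the smallest p of the 35 genes. It is a retrotransposon-derived gene needed for the placenta, on chromosome 6 (4747306 to 4760517, GRCm38), and is paternally expressed like its neighbour Sgce, a sarcoglycan gene. Peg10 had 2 and 9 reads in the controls, against 36 and 33 in Zscan4 OE, that is 0.283, 0.465, 1.5 and 1.01 RPKM. Both Zscan4 OE libraries were above both controls, with means of 0.374 ± 0.129 and 1.25 ± 0.344 RPKM (SD, n = 2). The log2 difference was 1.52 (SE 0.581, limma adjusted p = 0.795, unadjusted p = 0.0530). It was positive in all 14 alternatives, from 0.71 with a pseudocount of 1 to 1.80 without control 2, and its adjusted p was at least 0.352 in each. The counting intervals of the controls, 0.228 to 6.81 and 1.42 to 5.88 RPM, lay below that of Zscan4 OE 1 (6.99 to 13.8) and overlapped that of Zscan4 OE 2 (4.64 to 9.46). Sgce was at 2.04, 0.714, 1.31 and 0.962 RPKM, with the controls outermost and a log2 difference of −0.11 (SE 0.654).

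Of the 8 genes outside these clusters, Inpp5f was the 1 whose groups did not overlap by library totals. Inpp5f (chromosome 7, 128611181 to 128696436), a phosphatase gene with an imprinted transcript variant, was at 0.566 and 0.579 RPKM in the controls, against 1.23 and 0.687 in Zscan4 OE (log2 difference 0.61, SE 0.569, limma adjusted p = 0.869). The difference was 0.23 without Zscan4 OE 1 and 0.99 without Zscan4 OE 2. Mest, a hydrolase-like gene expressed in mesoderm, was at 0.955, 0.349, 2.04 and 0.776 RPKM from 4, 4, 29 and 15 reads. By library totals only Zscan4 OE 1 lay above both controls. Per exon read both Zscan4 OE libraries did, with Zscan4 OE 2 and control 1 nearly equal. Nnat (chromosome 2, 157560078 to 157562525), a membrane proteolipid gene of the brain, had the largest negative difference, −0.83 (SE 0.843, limma adjusted p = 0.869). It was at 3.09, 0.753, 1.21 and 0.558 RPKM, and without control 1 the difference was 0.12 and without control 2 it was −1.78. Plagl1, a zinc finger gene that regulates other imprinted genes, was at 1.32, 0.793, 0.851 and 1.41 RPKM. The retrogene Zrsr1, related to a splicing factor, varied least relative to its level, with an SD of 0.124 around a mean of 1.72 RPKM, at 1.89, 1.69, 1.73 and 1.59 RPKM. Grb10, an adaptor that restrains insulin signalling, is maternally expressed in most tissues and was at 0.933, 0.796, 0.580 and 0.808 RPKM. Impact, a regulator of translation, was at 1.10, 0.502, 0.889 and 0.952 RPKM. Nap1l5, a nucleosome assembly-like retrogene, had 3, 3, 5 and 7 reads.

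Summed by expressed allele and divided by library totals, neither set separated the groups. The 21 paternally expressed genes summed to 153 and 115 RPM in the controls (95% intervals 130 to 178 and 103 to 128) and to 165 and 145 RPM in Zscan4 OE (152 to 179 and 135 to 156). Zscan4 OE 2 lay below control 1, so the groups overlapped. The 13 maternally expressed genes summed to 84.8 and 73.4 RPM in the controls, against 96.0 and 77.2 in Zscan4 OE, with the same order of libraries. The mean of Zscan4 OE was 1.16 times that of the controls for the paternal set and 1.095 times for the maternal set, against 1.05 for all rows of the table. The maternal ratio turned below 1 without Zscan4 OE 1 (0.976) and with genes weighted equally (0.961). Per exon read the ratio was 1.119 for the paternal set and 1.04 for the maternal set, against 1.0 for all rows. On that scale both Zscan4 OE libraries were above both controls for the paternal set, and the maternal set overlapped. Without Kcnq1ot1, and likewise without Peg10, Zscan4 OE 1 fell below control 1 per exon read, so the paternal groups overlapped. The ratios of means were then 1.096 and 1.081. The paternal result thus depends on the scaling and on single genes, and it was not tested. Within a library the paternal set held 1.80, 1.56, 1.72 and 1.88 times the reads of the maternal set. This balance between the sets did not separate the groups. Of the 8 clusters, only the Kcnq1 cluster had non-overlapping sums by library totals. They were 44.3 and 50.3 RPM in the controls, against 51.6 and 51.2 in Zscan4 OE. Their counting intervals overlapped, at 32.5 to 58.9 and 42.5 to 59.1 RPM in the controls and 44.4 to 59.6 and 45.1 to 58.0 RPM in Zscan4 OE. Per exon read the Kcnq1 cluster overlapped. On that scale the Peg3, Snrpn and Dlk1/Meg3 clusters were higher in both Zscan4 OE libraries (ratios of means 1.243, 1.213 and 1.069), and the other clusters overlapped. For Dlk1/Meg3 the control 1 and Zscan4 OE 1 libraries were nearly equal, at 53 of 131205 and 190 of 461681 exon reads. Which clusters separated thus depended on the scaling. Counting intervals per exon read, and a background share over other sets of genes, were not computed. The 6 long non-coding genes summed to 80.1 and 61.3 RPM in the controls, against 91.2 and 80.4 in Zscan4 OE, so both Zscan4 OE libraries were above both controls, though control 1 and Zscan4 OE 2 were nearly equal.

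**Figure D3:**
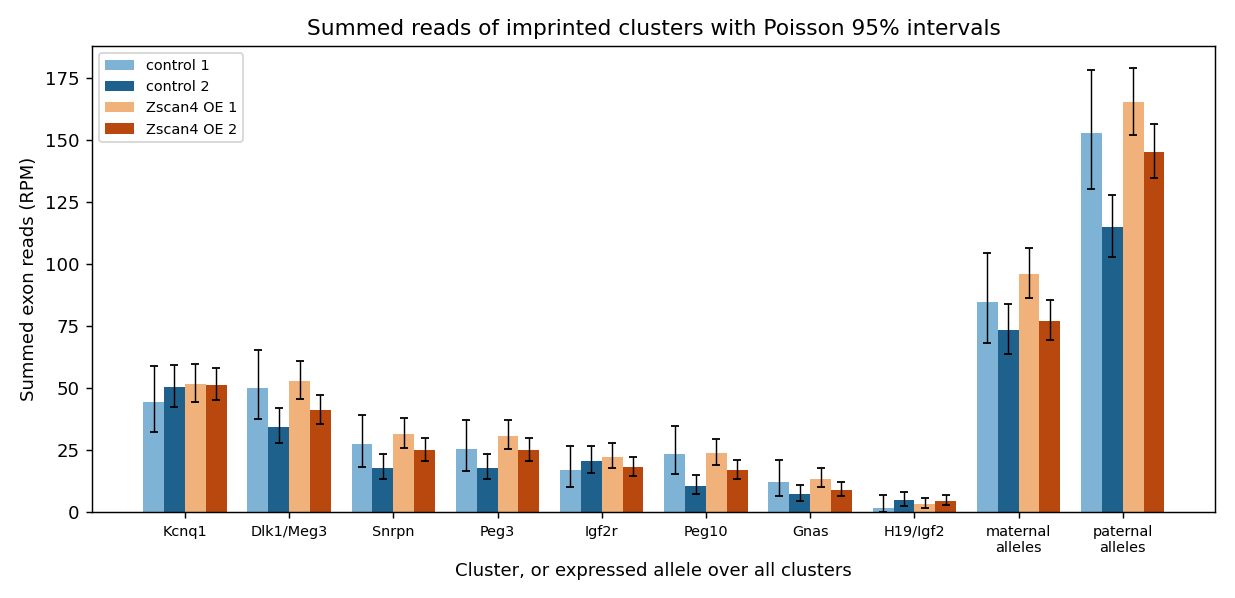
Summed exon reads per 1000000 library reads (RPM, vertical axis, from 0) for the 8 clusters and for the maternally and paternally expressed genes over all clusters, 1 bar per library with its Poisson 95% interval, which covers counting error only. Control 2 is the lowest bar for both allele sets, at 73.4 and 115 RPM, and in no cluster do both Zscan4 OE intervals lie clear of both control intervals.

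Ratios of reads between genes of the same cluster and library do not depend on the library totals. Peg10 had 0.0870 and 0.409 reads for each read of Sgce in the controls, against 0.720 and 0.660 in Zscan4 OE. Mkrn3 had 0.5 and 0.250 for each read of Ndn in the controls, against 1.38 and 1.07 in Zscan4 OE. Meg3 had 4.29 and 3.45 for each read of Dlk1, and 6.0 and 7.57 in Zscan4 OE. Kcnq1ot1 had 11.3 and 4.43 for each read of Kcnq1, and 13.7 and 12.1 in Zscan4 OE. In these 4 of the 8 pairs compared the ratio was higher in both Zscan4 OE libraries, and the exact permutation p was 0.33 for each (two-sided, 2 against 2), the smallest this design allows, and 0.667 after adjustment over the 8 pairs. Peg3 to Usp29, Airn to Igf2r, Zim1 to Peg3 and Rtl1 to Mirg overlapped between the groups. H19 to Igf2, with 0 and 0.0769 for the controls against 0.5 and 0.278 for Zscan4 OE, was also higher but rests on a control count of 0 and was not tested. The pairs were chosen with values of the genes known, and no background share over other gene pairs was computed.

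**Figure D4:**
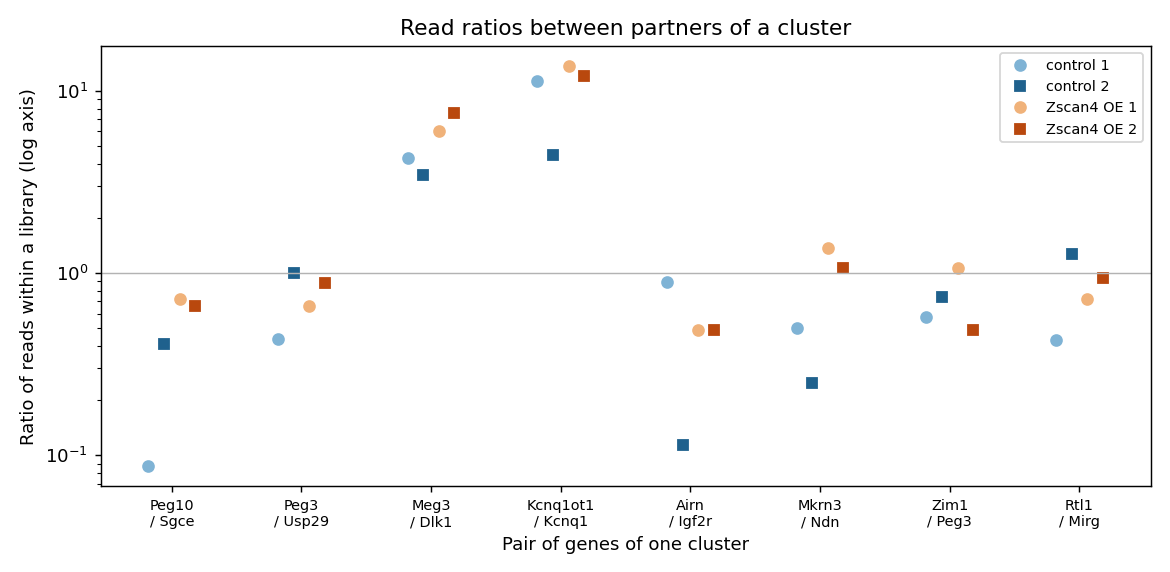
Ratio of reads between pairs of genes of the same cluster within each library (vertical log axis), with blue points for controls and orange points for Zscan4 OE. Both orange points lie above both blue points for Peg10 to Sgce, Meg3 to Dlk1, Kcnq1ot1 to Kcnq1 and Mkrn3 to Ndn, and for the other 4 pairs they do not.

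Further imprinted genes gave a similar picture. Of 46 others listed, 44 were in the table and tested, 0 passed in either direction, 26 log2 differences were above 0 and 18 below it, and the median was 0.20. Groups did not overlap in 7 higher (background 19.6%) and 5 lower genes (background 10.1%). The largest positive statistics were those of Tfpi2, a protease inhibitor gene near Peg10, with 0, 1, 4 and 8 reads (log2 difference 2.34, SE 0.937), Zim2 (1.03, SE 0.616) and Peg13 (0.94, SE 0.585). The largest negative ones were those of Zfp264, a gene of the Peg3 cluster, with 6, 5, 3 and 5 reads (−1.52, SE 0.759), Zdbf2 (−0.97, SE 0.511) and Osbpl5 (−0.85, SE 0.558). Their limma adjusted p was 0.835 for Tfpi2 and 0.869 for the others. Of 11 genes for factors that keep imprints, 0 passed, the median log2 difference was 0.35, and the groups did not overlap in 4 higher and 0 lower genes, against 0.28 and shares of 19.6% and 10.1% over all tested rows. The difference of this short list from other rows was not tested. Zfp57 itself was at 2.49, 1.55, 2.42 and 1.35 RPKM and overlapped between groups, while Dnmt3l, the cofactor that helps set imprints in germ cells, was at 1.58, 2.07, 4.27 and 3.21 RPKM, with both Zscan4 OE libraries above both controls (limma adjusted p = 0.869).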

How the data were processed

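The deposited table holds 1 RPKM value per gene and library, per the labels. Trimmomatic, Bowtie2, featureCounts and build mm10 (GRCm38) are named in the submitters' processing notes. Not given in the sources used here: tool versions, handling of duplicate and mitochondrial reads, any shift for the Tn5 cut, and the annotation. In the deposited RPKM values 8 library totals take turns from row to row. They were read from 2415 short RNA genes of known length, where 250 to 282 single-read values pointed to each total and 5 to the next candidate. Whole reads with a whole length (the smallest that fit the printed digits) came out of each of the 38361 rows holding 2 or more nonzero values, under exactly 1 rotation. The recovered length equalled the annotated one in 88.0% of 1104 short RNA genes, so some recovered reads and lengths may be wrong. Totals were assigned to libraries in rotation order, by the placement with the most alike exon shares (highest over lowest 1.365, next best 4.17). In any order 6 of 1680 placements did as well or better, so the assignment is likely and not certain. The planned test was limma 3.58.1 in R 4.3.3 (eBayes trend, no covariate) on log2(RPKM + 0.1), for rows whose mean RPKM reached 0.1, and it and the recovery were tested on simulated data. Sums were divided by library totals (RPM), with exact Poisson 95% intervals that cover counting error only. Coordinates come from RefSeq (GRCm38.p6), matched by symbol. Members, lists and tests were chosen with earlier results of these data known. The rule for named genes gave values in each library to members with 20 reads or more, and test statistics to the 3 with the largest in each direction (Peg10, Mkrn3, H19, and Ndn, Nnat, Cdkn1c). Statistics of further genes were added after their values were seen.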

Additional observations from a re-analysis of the deposited data

How the results depend on the processing

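The count of imprinted genes called was 0 higher and 0 lower in all 14 alternatives, including the fits that leave out a library and the fit with the replicate number as a block, in which the median difference of the list was 0.20 as before. Replicate numbers were not taken to pair libraries. Row by row, same-numbered libraries deviated together only weakly (correlation 0.129 across 19012 rows), and there are 2 numbers. That correlation leaves out any shift shared by all rows. Exon reads were 12.4% and 12.8% of all reads in control 1 and Zscan4 OE 1, against 9.38% and 9.93% in control 2 and Zscan4 OE 2. Same-numbered libraries were thus alike in exon share, and a pairing was not tested. The median difference of the list was −0.072 with each library centred on its median and 1.51 in the values as deposited, where the median of all rows was 1.40. Leaving out each library gave medians from 0.0029 (without control 2) to 0.387 (without control 1), ratios from 1.016 to 1.35 for summed paternal genes, and ratios from 0.976 to 1.21 for summed maternal genes. Ndn was at 1.31 and Nnat at 0.54 in the values as deposited, and Nnat at 0.12 without control 1 and −1.78 without control 2. Among the limits, 3 reads are 2.83 RPM in control 1, 3 imprinted genes had fewer than 20 reads in all, and each group has 2 libraries that vary beyond counting error. The assignment of totals to libraries moves every level, and scaling by exon reads, chosen after seeing the data, gave a median of 0.15. Weighting genes equally, also added then, gave ratios of 1.09 for paternal and 0.961 for maternal genes, against 1.16 and 1.095. The cause of these changes was not tested.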
